A study of Homo sapiens with 15 samples.

Results

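The brush border digestive hydrolases examined here are 10 genes that encode the enzymes on the luminal surface of enterocytes, namely the disaccharidases *SI*, *LCT*, *MGAM* and *TREH*, the peptidases *ANPEP*, *DPP4*, *MEP1A*, *MEP1B* and *TMPRSS15*, and the phosphatase *ALPI*. They were chosen by name from a table of 22392 genes, each represented by 1 probe set that matches that gene alone, and all 10 were measured by exactly 1 such probe set. Their mRNA was measured by 15 Affymetrix arrays of the Human Gene ST type, 3 for each of 5 groups, and each group has 1 array from each of 3 experiment batches. LS174T cells, a mucin-producing colon carcinoma line, were grown without agitation on regular well plates. HT29-MTX-E12 cells, a mucus-secreting clone derived from the HT29 colon carcinoma line, and Caco-2 cells, a colon carcinoma line that takes on traits of enterocytes after confluence, were grown on Transwell membranes under either SWMS or static conditions. SWMS stands for a semi-wet interface with mechanical stimulation, in which the cells had 75 µL of apical and 850 µL of basolateral medium and the plates were shaken at 65 rpm. Under static conditions they had 275 µL of apical and 1000 µL of basolateral medium and no shaking. The labels name no gene alteration. All lines had the same medium and were harvested 15 days after seeding. LS174T cells had no membrane culture, so that in comparisons with them the line cannot be told apart from the surface it grew on.

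Hydrolases of the brush border complete digestion at the membrane: they split disaccharides, starch fragments and short peptides into sugars, amino acids and dipeptides, which carriers in the same membrane then take up. Most of them are anchored in the apical membrane of mature villus enterocytes, and several serve as textbook markers of enterocyte differentiation. Caco-2 cells are widely used as an enterocyte model because they make many of these enzymes after confluence, whereas the goblet-like lines are used for their mucus.

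The deposited values are log2 intensities, on which 1 unit is a doubling. On this scale the 358 measured olfactory receptor genes, which are not expected to be expressed in these cells, had a median group mean of 2.24, and 96.65% of their group means lay under 4. A value under 4 is therefore called near the lower end of the signal, and a difference against such a value has an uncertain size. Levels of different genes are not set against each other, since probe sets differ in brightness. Of the epithelial markers *EPCAM*, *CDH1*, *KRT8*, *KRT18*, *VIL1*, *CDX2* and *KRT20*, only *KRT20* in LS174T cells had a group mean under 4. The 4 measured endothelial markers were under 4 in all groups. Of the 4 measured fibroblast markers, 2 or 3 were under 4 in each group, and the highest gene means were 4.55 to 5.80. Of the 4 measured leukocyte markers, 2 or 3 were under 4 in each group, and the highest gene means were 8.02 to 11.72. These lists therefore do not show that all markers of other cell types were absent. 1 array stood apart, the Caco-2 array of batch 1 under SWMS conditions, with a correlation of 0.9874 with the mean of its group, against at least 0.9931 for the other 14 arrays.

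The upstream DNA of 3 of the genes is shown as examples of the letters upstream of hydrolases that were higher in Caco-2 cells than in the other lines. All 3 windows shown hold a match to a motif named below, so that they do not represent the hydrolases without one. The windows are the 250 bases before the annotated transcription start, read on the gene's strand from RefSeq (GRCh38.p14). The searched motifs were GTTAAT, the core of sites for the HNF1 factors, TTTAT, the core of sites for the CDX factors, and GATAA, the core of sites for the GATA factors, all on both strands. Capitals mark the matches, which appear as the reverse complement where the match is on the other strand. A GATA and a CDX match overlapped once, in *TMPRSS15*.
*SI*, chr3:165078497-165078746, minus strand: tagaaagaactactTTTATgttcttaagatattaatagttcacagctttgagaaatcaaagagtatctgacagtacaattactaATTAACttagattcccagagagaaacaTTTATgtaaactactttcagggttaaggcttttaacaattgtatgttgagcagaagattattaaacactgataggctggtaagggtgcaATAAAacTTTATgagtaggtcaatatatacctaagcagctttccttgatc
*MGAM*, chr7:141995629-141995878, plus strand: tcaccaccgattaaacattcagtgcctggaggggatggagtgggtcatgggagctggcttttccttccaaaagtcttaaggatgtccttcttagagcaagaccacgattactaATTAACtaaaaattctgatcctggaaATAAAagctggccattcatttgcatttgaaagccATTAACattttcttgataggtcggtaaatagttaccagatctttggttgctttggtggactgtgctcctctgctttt
*ANPEP*, second annotated start, chr15:89806629-89806878, minus strand: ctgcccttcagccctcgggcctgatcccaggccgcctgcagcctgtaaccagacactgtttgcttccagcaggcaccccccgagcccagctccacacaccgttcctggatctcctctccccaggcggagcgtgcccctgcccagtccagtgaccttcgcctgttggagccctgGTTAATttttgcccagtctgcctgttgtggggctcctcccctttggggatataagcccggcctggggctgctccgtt

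The *SI* window held 1 HNF1 core and 4 CDX cores, and the *MGAM* window held 2 HNF1 cores and 1 CDX core. The second annotated start of *ANPEP* had 1 HNF1 core, at positions -77 to -72 from the start, whereas its first annotated start had no match to any of the 3 motifs. Among all 35116 promoters in the table, 6.2% held GTTAAT, 32.7% held TTTAT and 20.4% held GATAA. HNF1 cores were present in 4 of the 9 windows of the 8 matched members, CDX cores in 4 of 9 and GATA cores in 1 of 9. The windows of *TREH*, *DPP4* and *ALPI*, which were also higher in static Caco-2 than in static HT29-MTX-E12 cells, had none of these motifs. That of *MEP1B* had 1 CDX core, and that of *TMPRSS15* had 1 HNF1 core, 2 CDX cores and 1 GATA core. The windows of *SI*, *MGAM*, *MEP1B* and *TMPRSS15* had a low GC content (31.6%, 41.6%, 36.4% and 29.2%). The median over all promoters was 58.0%, and the 3 motifs are rich in A and T. The other member windows were at 58.4% (*ALPI*) to 74.0% (first start of *ANPEP*). *LCT* and *MEP1A* were not in the promoter table.

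*SI* and *MGAM*, which encode related enzymes, also shared the run attactaATTAACt. It began at position -173 from the start of *SI* and at position -144 from that of *MGAM*, and it held an HNF1 core in each. These 14 bases were the longest run shared by any of the 35 pairs of member windows from different genes, for which the median was 7 bases and the second longest 10. The run occurred in 2 of the 35116 windows, which are those of *SI* and *MGAM*, from which it was taken. A match of letters is a description of the sequence and not a measurement of binding.

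**Figure D1:**
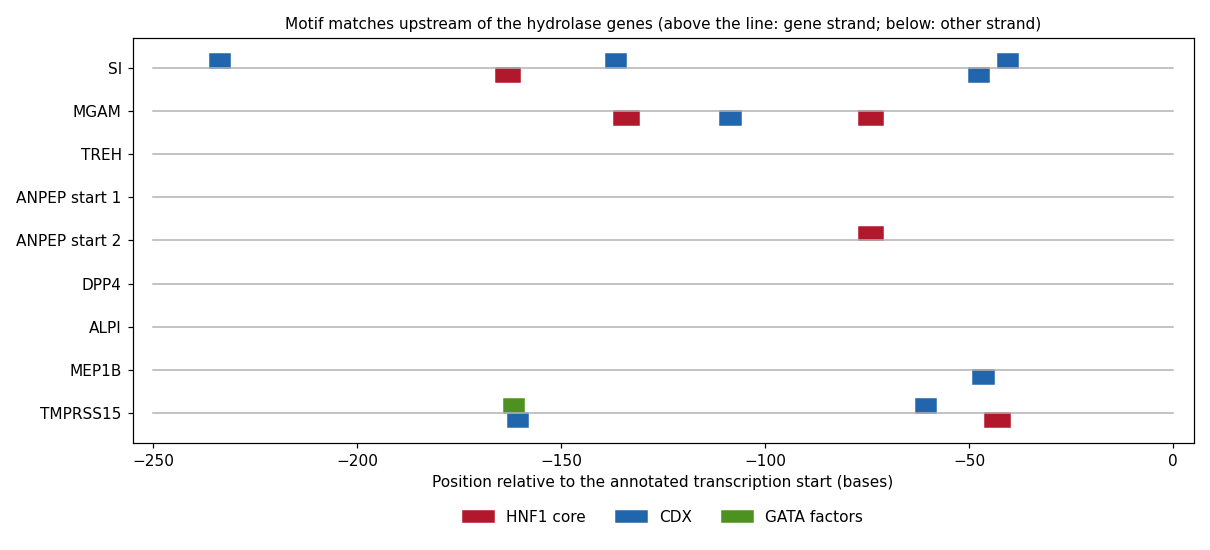
Matches to the HNF1 core, CDX and GATA motifs in the 250 bases upstream of 9 annotated starts of 8 hydrolase genes, with the distance from the start in bases on the x axis. *SI* has 4 CDX matches and 1 HNF1 match, *MGAM* has 2 HNF1 matches, and *TREH*, *DPP4* and *ALPI* have none.

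Sucrase-isomaltase (*SI*, probe set 16961106), which splits sucrose and the branched fragments of starch, separated the 3 lines. In LS174T cells its log2 values were 2.87, 2.24 and 2.32 in batches 1, 2 and 3, near the lower end of the signal. HT29-MTX-E12 cells had 5.62, 5.07 and 5.42 under SWMS conditions and 5.16, 5.16 and 4.12 under static conditions. Caco-2 cells had 10.37, 10.30 and 10.38 under SWMS conditions and 10.63, 10.91 and 10.80 under static conditions. Thus all Caco-2 arrays were above all HT29-MTX-E12 arrays, and these above all LS174T arrays.

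Lactase (*LCT*, probe set 16903067) hydrolyses the milk sugar lactose and is the enzyme lost in adult hypolactasia. Its log2 values lay between 2.65 and 3.36 on all LS174T and HT29-MTX-E12 arrays. In Caco-2 cells they were 5.47, 5.49 and 5.74 under SWMS conditions, against 7.76, 7.95 and 7.94 under static conditions. The Caco-2 groups did not overlap and both lay above the other lines.

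Maltase-glucoamylase (*MGAM*, probe set 17052425), which releases glucose from the ends of starch fragments, had a pattern of the same kind. It lay between 2.37 and 3.04 on all LS174T and HT29-MTX-E12 arrays. Caco-2 cells had 3.37, 3.24 and 3.49 under SWMS conditions, which is near the lower end of the signal, against 5.34, 5.71 and 5.50 under static conditions. *MGAM2*, a neighbouring paralog, was at 6.09 to 6.54 in HT29-MTX-E12 cells with SWMS conditions and at 6.65 to 7.10 under static conditions. These levels are not set against those of *MGAM*, and how far the probes of the 2 genes cross-hybridise was not tested.

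Trehalase (*TREH*, probe set 16745064), which splits the fungal and insect sugar trehalose, was the disaccharidase with the least spread between lines. Its log2 values were 5.14, 5.30 and 4.94 in LS174T cells. HT29-MTX-E12 cells had 4.62, 4.14 and 4.75 under SWMS conditions and 4.52, 4.32 and 4.76 under static conditions. Caco-2 cells had 4.84, 4.88 and 4.92 under SWMS conditions and 4.88, 5.42 and 5.41 under static conditions. The LS174T and Caco-2 arrays overlapped, and all of them lay above the HT29-MTX-E12 arrays of both conditions.

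Among the peptidases, aminopeptidase N (*ANPEP*, probe set 16813206) removes amino acids from the start of peptides. LS174T cells had log2 values of 4.29, 4.16 and 4.03. HT29-MTX-E12 cells had 6.37, 5.94 and 5.42 under SWMS conditions and 5.58, 5.14 and 5.20 under static conditions, so that these groups overlapped. Caco-2 cells had 7.30, 7.57 and 7.84 under SWMS conditions, against 8.84, 9.15 and 9.02 under static conditions, without overlap.

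Dipeptidyl peptidase 4 (*DPP4*, probe set 16904278) removes dipeptides that end in proline or alanine and inactivates the incretin hormones. It was well above the lower end of the signal in every group and had the smallest spread between replicates of the 10 genes, with SDs of 0.0158 to 0.0618. LS174T cells had log2 values of 8.92, 8.95 and 8.90. HT29-MTX-E12 cells had 10.56, 10.52 and 10.56 under SWMS conditions and 10.44, 10.53 and 10.51 under static conditions. Caco-2 cells had 10.34, 10.25 and 10.37 under SWMS conditions, against 10.83, 10.86 and 10.84 under static conditions, so that Caco-2 cells were the highest group under static conditions and lay under both HT29-MTX-E12 groups under SWMS conditions.

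The meprins are zinc metalloproteases built from alpha and beta subunits. The alpha subunit, *MEP1A* (probe set 17009373), was near the top of its range only in Caco-2 cells, with log2 values of 10.68, 10.56 and 10.69 under SWMS conditions and 11.24, 11.36 and 11.25 under static conditions. LS174T cells had 3.48, 4.42 and 3.88, and HT29-MTX-E12 cells lay between 2.09 and 3.08 over both conditions. The beta subunit, *MEP1B* (probe set 16851824), which anchors the complex in the membrane, lay between 2.78 and 3.49 on all 15 arrays. Enteropeptidase (*TMPRSS15*, probe set 16924349), the duodenal protease that activates trypsinogen, lay between 1.77 and 2.85 on all 15 arrays. Neither gene was above the lower end of the signal in any group.

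Intestinal alkaline phosphatase (*ALPI*, probe set 16892260) removes phosphate from bacterial lipopolysaccharide and nucleotides in the lumen. Its log2 values lay between 3.01 and 3.65 on all LS174T and HT29-MTX-E12 arrays. Caco-2 cells had 4.73, 6.05 and 5.91 under SWMS conditions, against 7.13, 7.10 and 6.98 under static conditions. The lowest of the SWMS values came from the array that stood apart. The closely related placental and germ-cell phosphatases *ALPP* and *ALPG* had group means of 2.13 to 3.05 and 2.62 to 3.55.

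**Figure D2:**
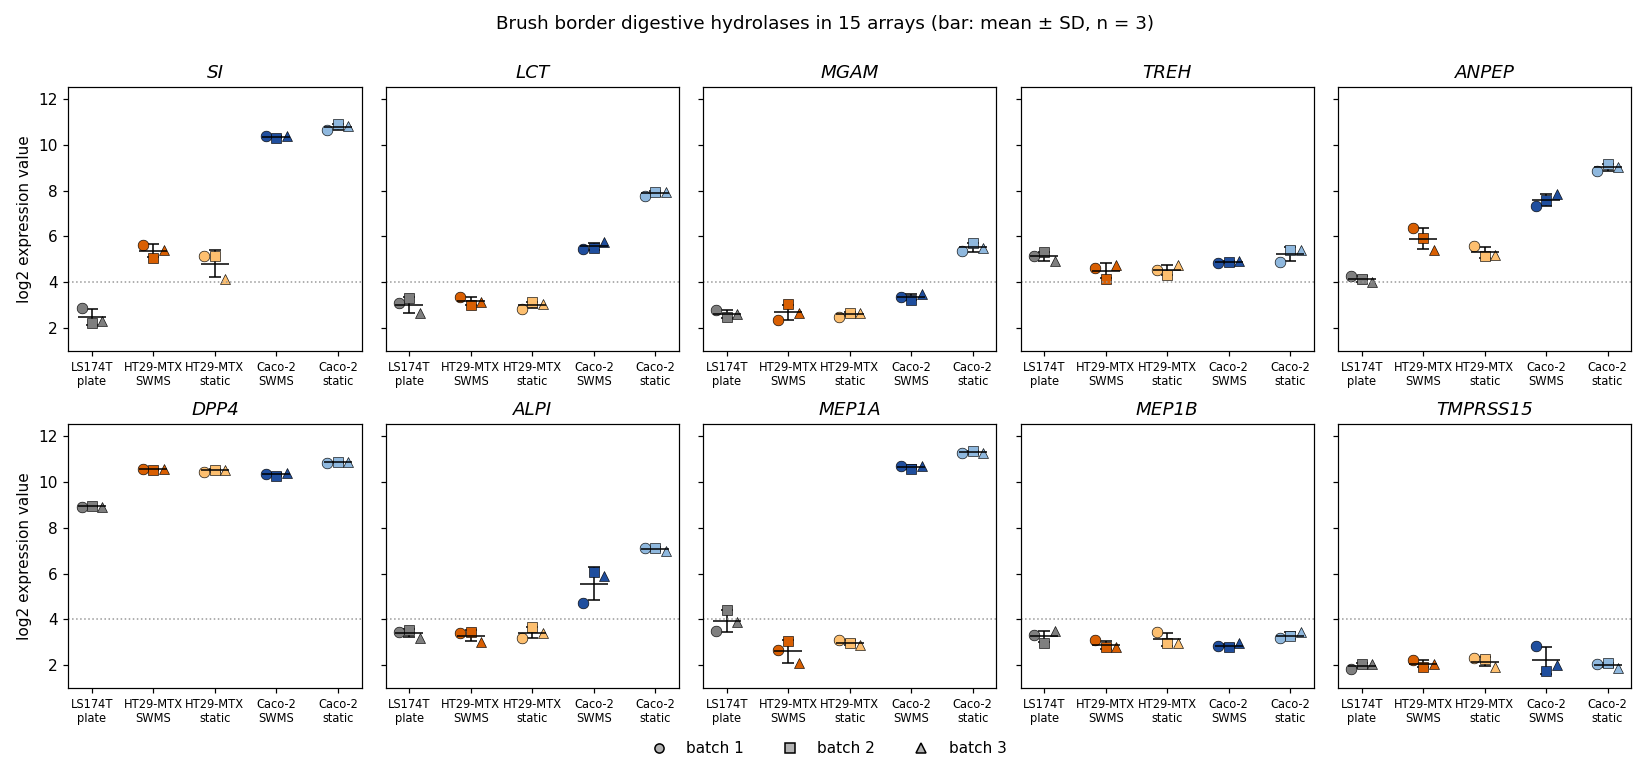
The log2 expression value of each of the 10 hydrolases (y axis) on the 15 arrays in 5 groups (x axis, HT29-MTX being HT29-MTX-E12), with 1 symbol per batch, bars for the mean ± SD of 3 arrays and a dotted line at 4, under which values are near the lower end of the signal. *SI* and *MEP1A* are above 10 in Caco-2 cells alone, *DPP4* is above 8 in all groups, and *MEP1B* and *TMPRSS15* stay under the line.

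In Caco-2 cells, 5 of the 10 hydrolases fell under SWMS conditions and none rose, at an adjusted p under 0.05 in limma with Benjamini-Hochberg adjustment over all 53617 probe sets. Over all genes 6.72% fell and 3.02% rose. *LCT* fell by 2.31 on the log2 scale (SE 0.18, adjusted p = 2.2e-06), a 4.98-fold lower value, and *MGAM* fell by 2.15 (SE 0.18, adjusted p = 6.1e-06). *ALPI* fell by 1.50 (SE 0.28, adjusted p = 0.0038), *ANPEP* fell by 1.43 (SE 0.21, adjusted p = 0.00071) and *DPP4* fell by 0.52 (SE 0.05, adjusted p = 2.5e-05). These 5 genes cover all the roles, with 2 disaccharidases, 2 peptidases and the phosphatase. In a bulk culture, fewer cells that express a gene and less RNA per cell cannot be told apart.

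Each of these 5 was lower in every batch. *LCT* changed by -2.29, -2.46 and -2.20 in batches 1, 2 and 3, *MGAM* by -1.97, -2.47 and -2.01, and *ANPEP* by -1.53, -1.58 and -1.19. *DPP4* changed by -0.49, -0.61 and -0.47, a small difference that was still several times its spread between batches (SD 0.0746). *ALPI* changed by -2.39, -1.05 and -1.07, so that batch 1 stood apart by more than 1 log2 unit. Without the SWMS array of batch 1, *ALPI* differed by -1.09 (adjusted p = 0.0036), and with any 1 Caco-2 array left out the same number of members, 5, was called lower. In a fit of the Caco-2 arrays alone the adjusted p of *ALPI* was 0.0573.

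*SI* and *MEP1A*, which were the most above the other lines in Caco-2 cells, were not called under SWMS conditions. *MEP1A* differed by -0.64 (SE 0.23, adjusted p = 0.15), with -0.55, -0.80 and -0.56 in the 3 batches. *SI* differed by -0.43 (SE 0.25, adjusted p = 0.42), with -0.27, -0.61 and -0.42. Both groups of arrays were without overlap for both genes, and in a fit of the Caco-2 arrays alone, where the spread of the other lines does not enter, both were called lower (adjusted p = 0.0032 for *MEP1A* and 0.0365 for *SI*). *MEP1B* differed by -0.44 (adjusted p = 0.22), *TREH* by -0.36 (adjusted p = 0.40) and *TMPRSS15* by 0.20 (adjusted p = 0.74). In all, 9 of the 10 genes were lower in all 3 batches, as were 22.3% of all genes. For 8 of the 10 all SWMS arrays lay below all static arrays and for none above, where 15.6% of all genes lay below and 9.66% above. Both counts include *MEP1B*, which was under 4 on every array. The median difference of the 10 was -0.58, against -0.02 over all genes.

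In HT29-MTX-E12 cells, none of the 10 hydrolases was called in either direction by limma, where 3.66% of all genes rose and 1.87% fell. At an unadjusted p under 0.05, 2 were higher and 0 were lower, where 9.56% of all genes were higher and 8.05% lower. These were *ANPEP*, which differed by 0.60 (SE 0.21, adjusted p = 0.19), and *SI*, which differed by 0.55 (SE 0.25, adjusted p = 0.34). *ANPEP* was higher in all 3 batches, by 0.78, 0.80 and 0.22, as were 20.4% of all genes. It differed by 0.85 without the SWMS array of batch 3 (adjusted p = 0.042) and by 0.37 without that of batch 1 (adjusted p = 0.54), and it was called in 1 of 6 fits with an array left out. *SI* differed by 0.46, -0.09 and 1.30, a spread that includes both signs. SWMS and static arrays overlapped for all 10 genes, whereas among all genes 13.4% lay wholly above and 13.5% wholly below under SWMS conditions. The median difference was 0.02, against -0.02 over all genes. Both group means of *LCT*, *MGAM*, *ALPI*, *MEP1A*, *MEP1B* and *TMPRSS15* were under 4, where a decrease could hardly be seen. The counts and the median include these genes.

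**Figure D3:**
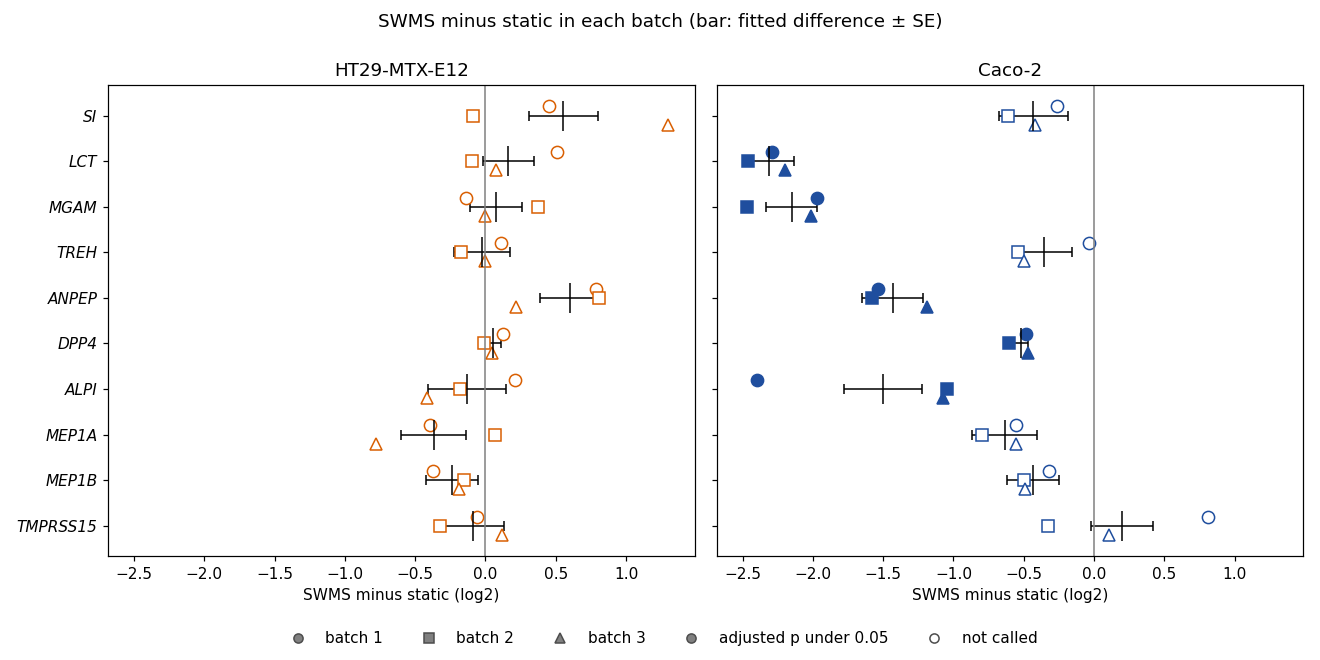
SWMS minus static on the log2 scale (x axis) for each hydrolase in each batch (symbols) and in the fit (bar, ± SE), in HT29-MTX-E12 cells on the left and Caco-2 cells on the right, filled where the adjusted p is under 0.05. In Caco-2 cells *LCT* and *MGAM* lie at or below -1.97 in every batch, whereas no gene is filled in HT29-MTX-E12 cells.

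The response to SWMS conditions was compared directly between the lines as the difference of both differences, HT29-MTX-E12 minus Caco-2. It was called for 4 of the 10 genes, all higher, where 3.58% of all genes were higher and 0.911% lower. It was 2.48 for *LCT* (SE 0.25, adjusted p = 9.6e-05), 2.23 for *MGAM* (SE 0.26, adjusted p = 0.00028), 2.04 for *ANPEP* (SE 0.30, adjusted p = 0.0016) and 0.58 for *DPP4* (SE 0.07, adjusted p = 0.00055). Each of these was above 0 in all 3 batches, as were *SI*, *TREH* and *ALPI*, which were not called, so 7 of the 10 genes in all. The share of all genes above 0 in all 3 batches was not counted. *LCT* and *MGAM* lay under 4 in both HT29-MTX-E12 groups, where a decrease could hardly be seen, whereas *ANPEP* and *DPP4* were above it. *ALPI* differed by 1.38 between the responses (adjusted p = 0.086) and *SI* by 0.99 (adjusted p = 0.19), and neither was called.

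Under static conditions, 8 of the 10 hydrolases were lower in HT29-MTX-E12 than in Caco-2 cells and none was higher, where 18.4% of all genes were lower and 18.1% higher. *MEP1A* was lower by a log2 difference of -8.30 (SE 0.23, adjusted p = 2.2e-12), *SI* by -5.96 (SE 0.25, adjusted p = 1.1e-10) and *LCT* by -4.87 (SE 0.18, adjusted p = 3.5e-11). The differences were -3.70 for *ANPEP*, -3.64 for *ALPI*, -2.91 for *MGAM*, -0.71 for *TREH* and -0.35 for *DPP4*, with adjusted p from 4.1e-09 (*ANPEP*) to 0.015 (*TREH*). The call for *TREH* was lost when the static arrays of Caco-2 batch 2, Caco-2 batch 3 or HT29-MTX-E12 batch 2 were left out (adjusted p = 0.0646, 0.0670 and 0.0683). The other 7 were called with any 1 of the 6 arrays left out.

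LS174T cells were set against both static groups, which they share with the comparisons above. Against static Caco-2 cells, 7 of the 10 were lower and none higher, where 16.9% of all genes were lower and 18.5% higher. The differences ran from -8.30 for *SI* (SE 0.25, adjusted p = 3.8e-12) to -1.92 for *DPP4* (SE 0.05, adjusted p = 1.6e-12), with *MEP1A* at -7.35, *LCT* at -4.87, *ANPEP* at -4.84, *ALPI* at -3.68 and *MGAM* at -2.90. *TREH* differed by -0.11 (SE 0.20, adjusted p = 0.80).

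Against static HT29-MTX-E12 cells, LS174T cells had 3 lower and 2 higher hydrolases, where 15.1% of all genes were lower and 16.9% higher. The lower ones were *SI* (log2 difference -2.34, SE 0.25, adjusted p = 4.6e-06), *DPP4* (-1.57, SE 0.05, adjusted p = 3.0e-11) and *ANPEP* (-1.15, SE 0.21, adjusted p = 0.00091). *MEP1A* was higher by 0.95 (SE 0.23, adjusted p = 0.0071), at values on both sides of 4 in LS174T cells. *TREH* was higher by 0.60 (SE 0.20, adjusted p = 0.042), in all 3 batches, but this call was lost with the experiment batch as a term in the fit (the replicate block, adjusted p = 0.053) and when any of 4 of the 6 arrays was left out (batches 1 and 2 of both lines, adjusted p from 0.0941 to 0.155). *LCT*, *MGAM* and *ALPI*, which were under 4 in both lines, differed by 0.00, 0.01 and -0.04.

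For each gene the 5 groups were ordered by their mean, which gave 40 pairs of neighbours, of which 16 differed by the test and 24 did not. Pairs outside the 6 comparisons above were tested in the same fit, in which 36.3% of all genes were called between SWMS HT29-MTX-E12 and SWMS Caco-2 cells, 36.4% between SWMS HT29-MTX-E12 and static Caco-2 cells, 38.0% between static HT29-MTX-E12 and SWMS Caco-2 cells, 28.7% between LS174T and SWMS HT29-MTX-E12 cells, and 34.8% between LS174T and SWMS Caco-2 cells. Static Caco-2 cells were first for *SI*, *LCT*, *MGAM*, *TREH*, *ANPEP*, *DPP4*, *ALPI* and *MEP1A*. *MEP1B* and *TMPRSS15* were under 4 in all groups, so that their order has no meaning here. For *DPP4* both HT29-MTX-E12 groups came above SWMS Caco-2 cells, and the lower of them, the static group, differed from SWMS Caco-2 cells by 0.17 (adjusted p = 0.024). For *MGAM*, SWMS Caco-2 cells were above SWMS HT29-MTX-E12 cells, by 0.68 (adjusted p = 0.011). Both group means were under 4, at 3.37 and 2.69, so that the size of this difference is uncertain. *TREH* had no called neighbours, and no difference between the conditions of HT29-MTX-E12 cells was called for any gene.

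Of the other hydrolases of the brush border, 11 of the 16 listed genes were measured by a probe set of their own. In Caco-2 cells 6 fell and 1 rose under SWMS conditions, where 6.72% of all genes fell and 3.02% rose. The median difference was -0.71, against -0.02 over all genes. *ENPP3*, an ectonucleotidase, differed by -2.37 (adjusted p = 2.6e-06), *PLB1*, the brush border phospholipase B, by -2.17 (adjusted p = 1.4e-06), *MGAM2* by -2.15 (adjusted p = 1.6e-05), the proline aminopeptidase *XPNPEP2* by -1.34 (adjusted p = 0.0041) and carboxypeptidase M (*CPM*) by -0.81 (adjusted p = 0.042). The one that rose was *NT5E*, the 5'-nucleotidase CD73, by 1.03 (adjusted p = 0.00012). In HT29-MTX-E12 cells none of the 11 was called by limma. At an unadjusted p under 0.05, 0 were higher and 2 lower, where 9.56% of all genes were higher and 8.05% lower. *MME*, the endopeptidase neprilysin, was at 8.78, 8.83 and 8.53 in LS174T cells and under 3 on all arrays of the other lines. In HT29-MTX-E12 cells the group means of *MME*, *XPNPEP2*, *ENPP3* and *ASAH2* were under 4 in both conditions, where a decrease could hardly be seen.

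The carriers that take up the released sugars, amino acids and peptides were also lower in Caco-2 cells under SWMS conditions. Of the 10 listed, 8 fell and none rose, where 6.72% of all genes fell and 3.02% rose. The median difference was -1.97, against -0.02 over all genes. The fructose carrier *SLC2A5* had 4.09, 3.79 and 4.09 under SWMS conditions, against 7.18, 7.79 and 7.66 under static conditions, a difference of -3.55 (adjusted p = 9.8e-08). The peptide carrier *SLC15A1* differed by -2.71 (adjusted p = 9.1e-06), the sodium-glucose carrier *SLC5A1* by -2.39 (adjusted p = 1.8e-06), the glutamate carrier *SLC1A1* by -2.16 (adjusted p = 5.4e-08), the cystine and dibasic amino acid carrier subunit *SLC3A1* by -2.13 (adjusted p = 1.85e-06) and the basolateral hexose carrier *SLC2A2* by -1.82 (adjusted p = 0.00013). In HT29-MTX-E12 cells 2 of the 10 rose and none fell, where 3.66% of all genes rose and 1.87% fell. *SLC2A2* had 7.93, 7.76 and 7.40 under SWMS conditions, against 6.04, 5.95 and 5.69 under static conditions, and *SLC3A1* had 6.84, 6.90 and 6.70, against 5.70, 5.29 and 5.24. The response differed between the lines for 8 of the 10 carriers, all higher, where 3.58% of all genes were higher and 0.911% lower. The difference was 3.62 for *SLC2A2* (adjusted p = 2.3e-05) and 3.53 for *SLC3A1* (adjusted p = 2.8e-06). The 8 carriers included *SLC2A5* and *SLC15A1*, which had group means under 4 in both HT29-MTX-E12 groups. These were 3.04 and 3.41 under SWMS conditions and 3.33 and 3.50 under static conditions, where a decrease could hardly be seen.

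Relatives of the 10 genes that act outside the brush border were also examined, such as lysosomal, cytosolic and endoplasmic reticulum enzymes. In Caco-2 cells 5 of 20 fell and 1 rose, where 6.72% of all genes fell and 3.02% rose. The median of the 20 was -0.15, against -0.02 over all genes. Those that fell included the aminopeptidases of the endoplasmic reticulum *ERAP2* (-1.11, adjusted p = 0.00036) and *ERAP1* (-0.58, adjusted p = 0.0065). They also included the transmembrane serine protease *TMPRSS2* (-0.98, adjusted p = 0.0086) and lysosomal acid glucosidase, *GAA* (-0.83, adjusted p = 0.012). In HT29-MTX-E12 cells 2 of 20 fell and 1, the serine protease *TMPRSS4*, rose, where 1.87% of all genes fell and 3.66% rose. Of 11 measured intestinal transcription factors, *KLF4* (-1.08, adjusted p = 0.00058) and *CREB3L3* (-0.81, adjusted p = 0.037) fell in Caco-2 cells, and *KLF4* fell in HT29-MTX-E12 cells (-0.82, adjusted p = 0.0073). *CDX2*, whose motif was searched above, differed by -0.65 in Caco-2 cells (adjusted p = 0.067). Under static conditions 4 of the 11 factors were lower and 3 higher in HT29-MTX-E12 than in Caco-2 cells, where 18.4% of all genes were lower and 18.1% higher. The lower ones included *CDX2*, by a log2 difference of -3.43 (adjusted p = 3.7e-09), and *CREB3L3*, by -3.83 (adjusted p = 2.9e-09). The higher ones included *ONECUT2*, by 2.31 (adjusted p = 1.1e-08), and *KLF4*, by 1.38 (adjusted p = 5.97e-06). None of the 7 measured pancreatic enzymes, which are not made by enterocytes, was called by limma in any of the 6 comparisons, with 2 lower in HT29-MTX-E12 cells at an unadjusted p under 0.05.

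**Figure D4:**
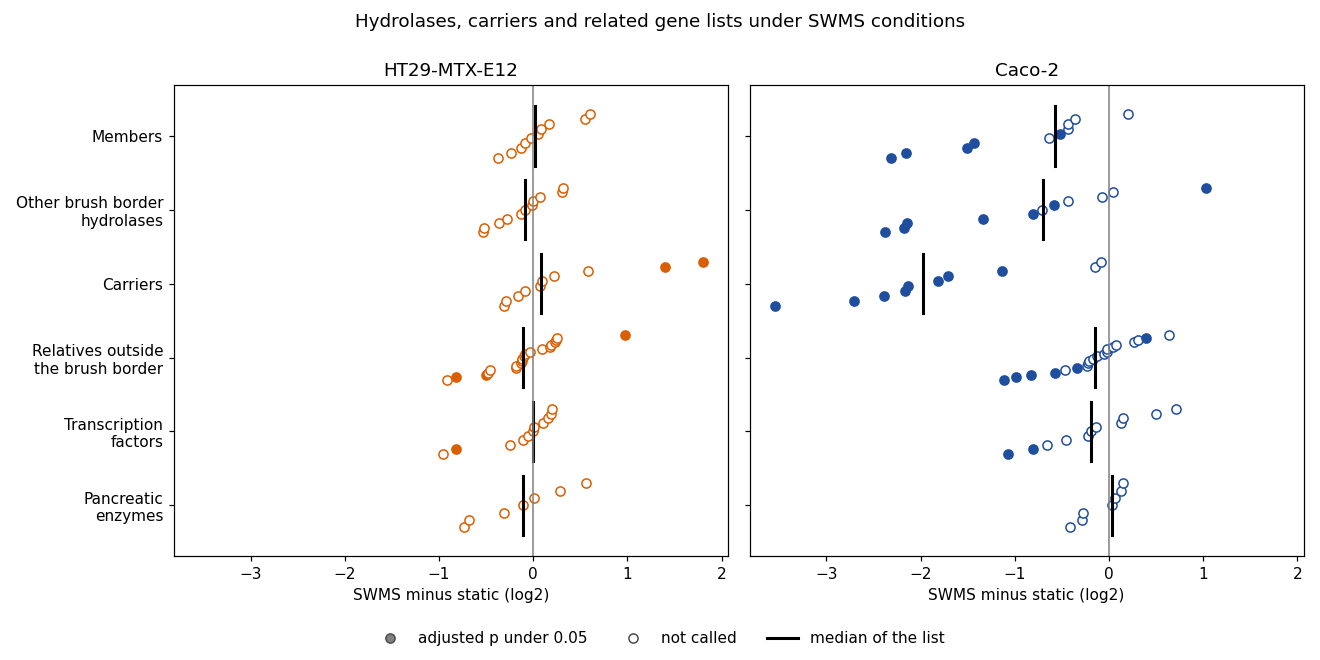
SWMS minus static on the log2 scale (x axis) for the genes of 6 lists (rows), in HT29-MTX-E12 cells on the left and Caco-2 cells on the right, with filled points at an adjusted p under 0.05, open points for genes that were not called, and a black line at the median of each list. In Caco-2 cells the medians lie at -0.58 for the 10 hydrolases, -0.71 for the other brush border hydrolases and -1.97 for the carriers, and in HT29-MTX-E12 cells at 0.02, -0.09 and 0.08.

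Markers of other cell states moved in the same arrays, and their part in the hydrolase results was not tested. Over all genes, 3.02% rose and 6.72% fell in Caco-2 cells under SWMS conditions. In HT29-MTX-E12 cells 3.66% of all genes rose and 1.87% fell, and 8.05% were lower at an unadjusted p under 0.05. Of 8 hepatocyte markers 5 rose and none fell in Caco-2 cells under SWMS conditions, and the sum of their log2 values was 87.0 to 87.6 per array, against 75.1 to 77.7 under static conditions. Of 5 markers of cycling cells 4 rose in Caco-2 cells and all 5 rose in HT29-MTX-E12 cells. Among the 7 epithelial markers, *KRT20*, a keratin of mature enterocytes and goblet cells (-2.49, adjusted p = 9.5e-08), *VIL1*, an actin bundler of the brush border (-0.36, adjusted p = 0.013), and *EPCAM* (-0.35, adjusted p = 0.0050) fell in Caco-2 cells and none was called in HT29-MTX-E12 cells by limma, with 2 lower at an unadjusted p under 0.05. The sum of the 7 was 60.1 to 61.2, against 64.1 to 65.4, in Caco-2 cells. All 7 goblet cell markers were higher in static HT29-MTX-E12 than in static Caco-2 cells, where 18.1% of all genes were higher and 18.4% lower. The sums of the 7 were 62.8 to 65.3, against 36.4 to 38.6. In the same comparison 7 of 8 hepatocyte markers were lower (sums of 42.5 to 44.7, against 75.1 to 77.7) and 4 of 5 markers of cycling cells were lower (30.8 to 33.9, against 38.0 to 39.0). Under SWMS conditions the goblet cell markers *TFF1* and *TFF3* fell in HT29-MTX-E12 cells, whereas in Caco-2 cells *TFF3* and *AGR2* rose and *TFF1* fell.

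The genes whose profiles over the 15 arrays were most like those of the hydrolases were found by the root mean square difference of the log2 values after each gene was centred on its own mean, for the 5 members with a highest group mean of at least 6 and a span of at least 2. For *LCT* they were *LRP2* at 0.27, *AKR1D1* at 0.30 and *CUBN* at 0.32. *LRP2* and *CUBN* encode megalin and cubilin, which take up proteins and vitamin complexes at the apical membrane. For *SI* they were *GSTA1* at 0.67, *FN1* at 0.77 and *RBP4* at 0.88, for *MEP1A* they were *AHSG* at 0.63, *SNORD116-14* at 0.69 and *GPC3* at 0.71, for *ANPEP* they were *HPN* at 0.43, *PRLR* at 0.44 and *GDPD2* at 0.48, and for *ALPI* they were *POU4F1* and *TRPM6* at 0.29 and *GATM* at 0.30. The arrays of a group share culture and batch, so that these values describe the 5 groups more than 15 independent samples. They do not show a shared change under SWMS conditions. In Caco-2 cells *FN1* and *RBP4* had higher means under SWMS than static conditions (11.64 against 11.39 and 10.68 against 10.09), unlike *SI*. *GSTA1* was lower (10.52 against 11.14). *AHSG*, *SNORD116-14* and *GPC3* were higher, unlike *MEP1A*.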

How the data were processed

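RNA of 3 independent experiments per group was hybridised to Affymetrix Human Gene ST arrays. RMA, as run by the authors, gave the deposited log2 intensities, with background corrected, arrays quantile normalised and probes summarised. The methods name redefined probe sets on a version 1.1 array, whereas the deposited identifiers matched the annotation of a version 2.1 array, which was used here. Of 53617 probe sets, 23866 name 1 gene, 1852 several and 27899 none. All probe sets entered the fit, and each of 22392 genes was represented by its brightest probe set on average. Precision is limited by the number of arrays.

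The fit in limma 3.58.1 (R 4.3.3) had a mean for each of the 5 groups over all 15 arrays, 10 residual degrees of freedom and variance moderation along the intensity. P-values are two-sided, and a gene was called at an adjusted p under 0.05. The script was tested on simulated data. Alternatives were the replicate block, array weights, no trend, IBMT (the moderated statistic of the methods), the compared lines alone, a filter at a group mean of 4, recentred arrays, and leaving out each array.

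All members are named. Genes of other lists are named from the 6 called genes per comparison with the smallest adjusted p. The SWMS difference of *CDX2* and the levels of *ALPP* and *ALPG* fall outside this rule and were chosen after their values were seen. The members and lists were chosen with earlier results of these data known. Replicate numbers are the experiment batches of the labels, which pairs SWMS and static arrays. Deviations of paired arrays correlated at 0.0385, -0.0001 and 0.0498 in HT29-MTX-E12 cells and at -0.0545, -0.1002 and -0.0142 in Caco-2 cells.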

Additional observations from a re-analysis of the deposited data

Results flagged for a closer look

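For 4 hydrolases the test of the difference itself found that HT29-MTX-E12 and Caco-2 cells responded differently to SWMS conditions. The difference of the responses was 2.48 for *LCT* (0.16 in HT29-MTX-E12 cells and -2.31 in Caco-2 cells), 2.23 for *MGAM* (0.08 and -2.15), 2.04 for *ANPEP* (0.60 and -1.43) and 0.58 for *DPP4* (0.06 and -0.52), all on the log2 scale. *LCT* and *MGAM* were under 4 in HT29-MTX-E12 cells in both conditions, where a decrease could hardly be seen. For these genes the test cannot tell a missing response from a level too low to fall. The level of *ANPEP* and *DPP4* was above 5 on all HT29-MTX-E12 arrays.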

How the results depend on the processing

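Apart from leaving out arrays, 398 differences kept their direction and their side of the threshold, whereas 10 did not, and 80 counts of called members stayed within 1.5 times, whereas 4 did not. With the Caco-2 arrays alone 6 members instead of 5 were called lower under SWMS conditions, since *SI* and *MEP1A* gained the call and *ALPI* lost it. The members called higher in LS174T than in static HT29-MTX-E12 cells were 1 instead of 2 with the replicate block, with IBMT, with only the compared lines and with recentred arrays, and 1 to 2 when arrays were left out. The replicate block changed no other call. For HT29-MTX-E12 cells under SWMS conditions 0 to 1 members were called higher when arrays were left out. For static HT29-MTX-E12 against static Caco-2 cells 7 to 8 were called lower, and 4 to 5 were called higher in the difference of the responses.

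The sign of 3 differences that were not called turned: *TMPRSS15* in Caco-2 cells (-0.0061) and *LCT* in LS174T against static HT29-MTX-E12 cells (0.0074) with array weights, and *MGAM* in LS174T against static HT29-MTX-E12 cells (-0.0098) with recentred arrays. The cause was not tested. Leaving out 1 array turned 17 differences, none of them called. They ranged from -0.10 to 0.24 for *MGAM*, -0.15 to 0.16 for *TREH* and -0.24 to 0.0181 for *ALPI* in HT29-MTX-E12 cells, and from -0.12 to 0.42 for *TMPRSS15* in Caco-2 cells. They ranged from -0.51 to 0.0341 for *TMPRSS15* in the difference of the responses. For LS174T against static HT29-MTX-E12 cells they were -0.15 to 0.18 for *LCT*, -0.0722 to 0.0873 for *MGAM* and -0.15 to 0.0756 for *ALPI*, and against static Caco-2 cells -0.16 to 0.10 for *MEP1B* and -0.0795 to 0.0465 for *TMPRSS15*.

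Each member had 1 probe set of its own, so the choice of another probe set gave no other value.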
